A study of Mus musculus with 2 samples.

Results

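Immediate early genes are the first genes a cell transcribes after a stimulus, and 10 of them were followed here in mouse spleen: Fos, Fosb, Jun, Junb, Egr1, Ier2, Atf3, Dusp1, Nr4a1 and Btg2. They were taken as a named list. Their probes were found through the accession printed for each non-control spot, and all 10 had a probe, among 20655 genes that could be named on the array. Each was well above background on at least 1 array, by the scanner software's own call, as were 13714 genes in all, and 9 of the 10 were so on both arrays.

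Spleens came from untreated, healthy male mice, one group Loxl3 wild-type (Loxl3+/+) and the other Loxl3 knock-out (Loxl3-/-). Loxl3 encodes a lysyl oxidase, an enzyme family known for crosslinking collagen and elastin. Total RNA of fresh spleen was labelled with Cy3 and hybridised to 1 one-colour Agilent array per group. The labels used here give no age, strain or number of animals per array, nor the time between death and extraction.

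With 1 array per group there is no replicate check and no p-value, and every value below describes these 2 arrays. Errors written after ± were carried to the log2 difference from the error the scanner software gives for each spot, so they hold no variation between animals. The single Loxl3 probe read 117 in wild type and 125 in the knockout-labelled sample, a scaled log2 difference of −0.43 ± 0.29. The sources used here do not say whether it lies inside the deleted part, so it does not check the labels, and the second array is called knockout-labelled.

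Transcription of these genes does not need new protein synthesis. Kinase cascades act on factors already bound at their promoters, chiefly serum response factor with its Ets-type partners and CREB, and the transcripts are usually short-lived. Fos and Jun family proteins pair to form AP-1, which binds DNA as a dimer. In spleen the same genes respond to antigen receptor engagement and to cytokines, and they are also known to respond to handling and dissociation of tissue.

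Promoter windows of 300 bases, 250 before and 50 after the annotated start, are shown for 2 of the genes with higher scaled signal on the knockout-labelled array, Fos and Junb, and for the 2 lowest, Jun and Nr4a1. The sequences are those of RefSeq on GRCm38.p6, written 5′ to 3′ on the gene's strand, and capitals mark the motifs searched for. These were the cAMP response element half-site (TGACG, or CGTCA on the other strand), the AP-1 site (TGACTCA), the TATA box (TATAAA) and the CArG box bound by serum response factor, on both strands. None of these motifs overlapped another in the windows shown.
Fos promoter, GRCm38.p6 chr12:85473640-85473939, plus strand: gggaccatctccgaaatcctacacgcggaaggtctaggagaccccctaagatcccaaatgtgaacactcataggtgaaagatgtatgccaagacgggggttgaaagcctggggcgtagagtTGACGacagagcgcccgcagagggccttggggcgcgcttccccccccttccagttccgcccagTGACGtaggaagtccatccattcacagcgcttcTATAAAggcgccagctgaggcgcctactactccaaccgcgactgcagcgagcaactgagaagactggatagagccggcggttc
Junb promoter, GRCm38.p6 chr8:84978699-84978998, minus strand: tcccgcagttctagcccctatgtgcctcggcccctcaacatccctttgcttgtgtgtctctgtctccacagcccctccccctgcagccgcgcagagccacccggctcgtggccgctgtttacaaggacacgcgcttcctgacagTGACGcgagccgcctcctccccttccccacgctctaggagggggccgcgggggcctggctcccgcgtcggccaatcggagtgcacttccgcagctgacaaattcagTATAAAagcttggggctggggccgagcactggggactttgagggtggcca
Jun promoter, GRCm38.p6 chr4:95052173-95052472, minus strand: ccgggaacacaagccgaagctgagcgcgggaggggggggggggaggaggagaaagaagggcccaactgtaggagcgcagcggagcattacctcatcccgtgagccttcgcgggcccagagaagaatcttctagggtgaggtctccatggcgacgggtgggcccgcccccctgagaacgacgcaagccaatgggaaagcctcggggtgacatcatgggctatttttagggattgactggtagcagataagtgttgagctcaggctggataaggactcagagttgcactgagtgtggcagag
Nr4a1 promoter, GRCm38.p6 chr15:101266596-101266895, plus strand: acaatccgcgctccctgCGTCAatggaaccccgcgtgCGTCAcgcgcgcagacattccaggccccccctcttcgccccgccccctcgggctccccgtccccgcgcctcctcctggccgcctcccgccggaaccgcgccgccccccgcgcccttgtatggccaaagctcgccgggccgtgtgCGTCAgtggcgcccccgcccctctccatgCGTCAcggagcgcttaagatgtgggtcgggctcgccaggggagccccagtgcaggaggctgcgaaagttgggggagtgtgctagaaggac

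Of the 10 genes, 8 had a window, and Ier2 and Egr1 were without one. Of these 8 windows, 7 held the half-site, against 20.8% of all 32851 windows. Nr4a1 had 4 copies, Dusp1 had 3, Fos and Btg2 had 2 each, Junb, Fosb and Atf3 had 1 each, and Jun had none. The TATA box letters were in 2 of the 8 windows, those of Fos and Junb, against 13.6% of all windows. They began at −33 from the annotated start in Fos, and in Junb at that start itself (0). The AP-1 site was in none of the 8 (5.2% of all windows), and neither was the CArG box (1.63%). Only exact letters inside these windows were searched for, so variant sites and sites further from the start were not counted. A match of letters describes these windows and does not show binding, and a relation to the differences was not tested.

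On the unscaled scale, every one of the 10 genes had a higher signal on the knockout-labelled array, with ratios from 1.16 for Jun to 3.38 for Ier2. That array was brighter as a whole, since its 75th percentile of probe signals was 1400 against 974, and 87.7% of all measured genes also had the higher signal there. Signals were therefore set to each array's 75th percentile, which takes 0.52 off each log2 difference. After scaling, 5 of the 10 genes were above 0 and 5 below, while 40.7% of all measured genes were above 0. The median of the 10 was −0.01, and that of all measured genes was −0.09. Ier2 alone was at least 2-fold higher and no gene of the list was at least 2-fold lower. Among all measured genes 2.16% were at least 2-fold higher (296 genes) and 2.03% at least 2-fold lower (278 genes), 4.19% together. Of all 2-fold genes 51.6% were higher, a share that was 38.7% with scaling on the median and 71.1% with scaling on probes above background on both arrays.

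**Figure D1:**
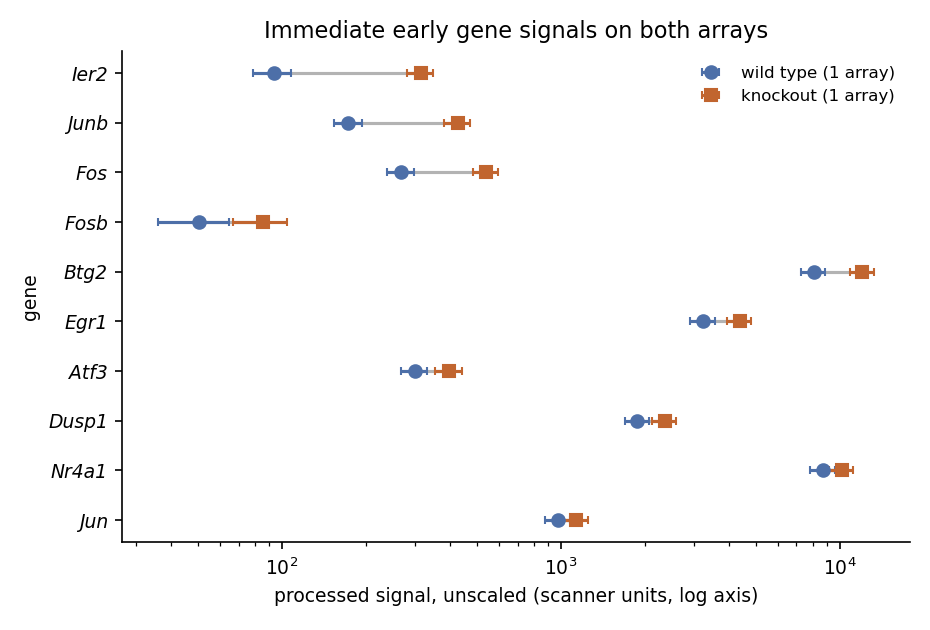
Unscaled processed signal of the 10 genes (scanner units, log axis) in wild type (circles) and in the knockout-labelled sample (squares), with bars for the software error of a spot. All 10 squares lie to the right of their circles, from a ratio of 1.16 for Jun to 3.38 for Ier2, on an array that was brighter as a whole.

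Among the AP-1 subunits, both Fos and Junb were higher after scaling, and Jun was the lowest of the 10. Junb, a Jun family protein that often restrains Jun-driven transcription and is prominent in activated lymphocytes, read 173 in wild type and 427 in the knockout-labelled sample. Its scaled log2 difference was 0.78 ± 0.22, or 1.72 times the wild-type level, and 95.9% of measured genes lay below it. Together with Ier2 it made 2 genes of the list at 1.5-fold higher or more, while 7.59% of all genes reached that. No gene of the list was 1.5-fold lower, and 9.38% of all genes were.

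Fos, the partner of Jun proteins in the classical AP-1 dimer, is the only member printed more than once on the array, at 10 spots. Its wild-type signals ran from 232 to 319 with a median of 264, and those on the knockout-labelled array from 474 to 632 with a median of 541. The 2 sets of spots did not overlap before scaling. After scaling, the 10 differences ran from 0.05 to 0.83, with a mean of 0.49 and an SD of 0.24 over spots, and all 10 were above 0. Spots of 1 probe on 1 array share the same RNA and hybridisation, so this spread is technical. Over 228 probes printed this way and above background, the median SD of the difference was 0.113, and 90% of them had an SD of at most 0.261. Fos spots thus varied more than most.

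**Figure D2:**
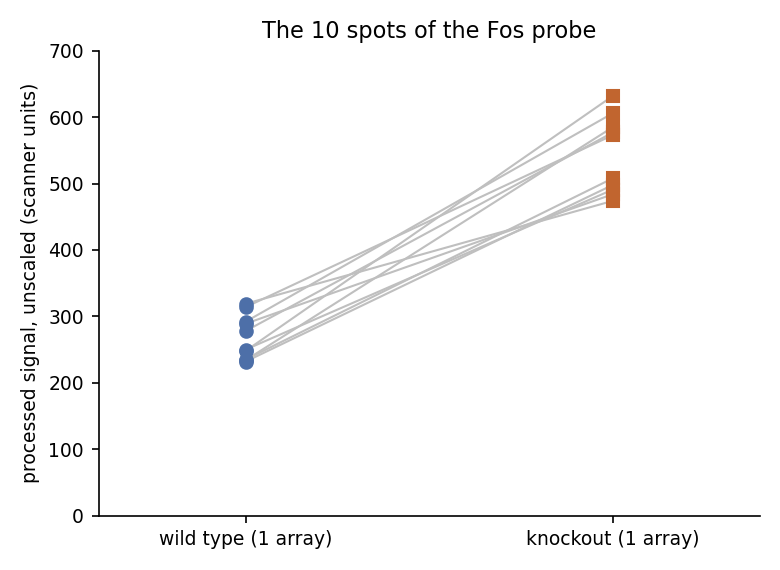
Unscaled processed signal (scanner units) of the 10 spots of the Fos probe on each array, with lines joining the same spot position. Wild-type spots lie between 232 and 319 and knockout-labelled spots between 474 and 632.

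Jun, the namesake of its family and a partner of Fos, read 979 and 1136 on the wild-type and knockout-labelled arrays. Its scaled difference was −0.31 ± 0.21, or 0.808 times the wild-type level, and 27.9% of measured genes lay below it. Fosb, a Fos family protein, read 50.2 and 85.4. The wild-type spot was not called well above background, though its signal was over the lowest one so called, 41.9. The value given is therefore the measured difference, 0.24 on the log2 scale or 1.18-fold. It is not a lower limit, and its software error, 0.52, was larger than the difference. The 4 AP-1 genes therefore did not share a direction: Junb and Fos were more than 1 software error above 0, Jun was more than 1 below, and Fosb was within it.

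Of the remaining transcription factors of the list, Egr1 and Atf3 lay within 1 software error of 0, and Nr4a1 was more than 1 below it, close to the value of Jun. Egr1, a zinc finger factor induced by mitogens and by antigen receptors, read 3235 and 4383. Its scaled difference was −0.08 ± 0.20, and it turned positive in 4 of 10 other ways of processing. Atf3, a stress-induced bZIP factor, read 299 and 398, for a difference of −0.11 ± 0.23 that was positive in 1 of the 10. Nr4a1, an orphan nuclear receptor used as a reporter of T and B cell receptor signalling, read 8716 and 10170. Its difference was −0.30 ± 0.20, or 0.812 times the wild-type level, and it stayed below 0 in all 10.

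Ier2, whose product is a nuclear protein with a role in transcriptional regulation, differed most. It read 93.3 in wild type and 315 in the knockout-labelled sample. The scaled log2 difference was 1.23 ± 0.27, or 2.35 times the wild-type level. It ranked 185 of 13714 measured genes from the top, with 98.7% below it. The value comes from 1 spot of 1 probe per array, and with normexp background correction it was 0.73, under 2-fold.

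Both negative regulators of growth and signalling were near 0. Btg2, an antiproliferative gene that acts in mRNA deadenylation and is a p53 target, read 8066 and 12065, a difference of 0.06 ± 0.20 that was −0.04 with scaling on the median. Dusp1, the phosphatase that switches off p38 and JNK and so closes the loop on the kinases above, read 1881 and 2358. Its difference was −0.20 ± 0.20, or 0.873 times the wild-type level. Of the 10 genes, 5 lay within 1 software error of 0 and 3, Ier2, Junb and Fos, lay more than 2 errors from it. For Fos, a mean of 10 spots, the error was averaged over spots and not reduced for their number. Neighbours in the order from Fosb at 0.24 down to Jun at −0.31 differed by less than their software errors.

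**Figure D3:**
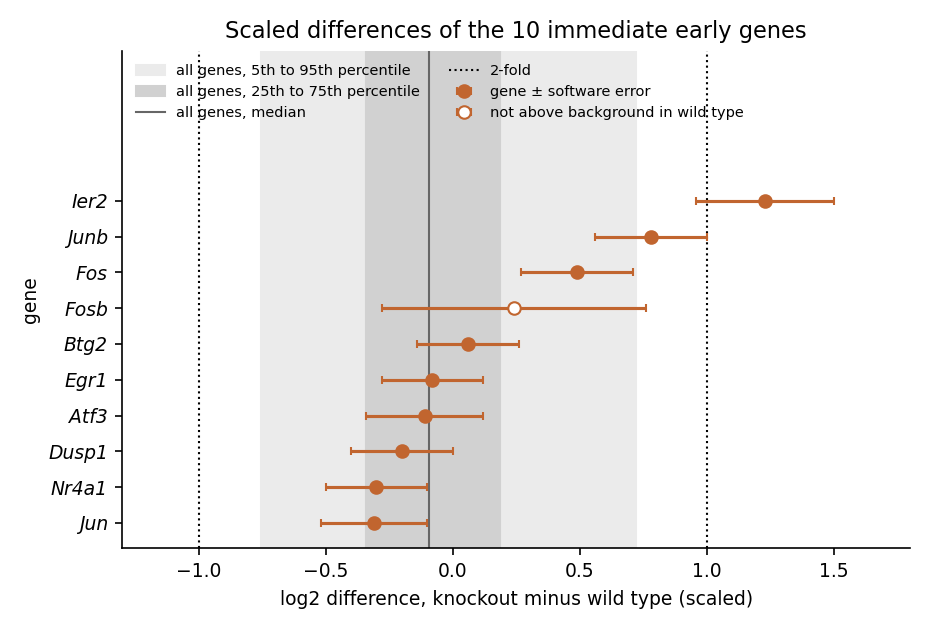
Scaled log2 difference, knockout-labelled minus wild type, of the 10 genes with bars for the software error, over grey bands for all measured genes (5th to 95th percentile, −0.76 to 0.72, and 25th to 75th, −0.34 to 0.19). Ier2 and Junb lie beyond the 95th percentile, and the open circle is Fosb, which was not above background in wild type.

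Ier2, Junb, Fos and Fosb, 4 of the 5 genes above 0 after scaling, were measured on dim spots, and the fifth, Btg2, on the brightest of the 10. Taking spot brightness as the geometric mean signal of both arrays, the 5 dimmest were Fosb, Ier2, Junb, Atf3 and Fos, at 65.5 to 380, with a median difference of 0.49. The 5 brightest were Jun, Dusp1, Egr1, Nr4a1 and Btg2, at 1055 to 9865, with a median of −0.20. Across the 10 genes brightness and difference had a Spearman rho of −0.58 (Pearson r −0.61). Across all 13714 measured genes the rho was −0.31 (r −0.25). All genes come from the same 2 hybridisations, and these are descriptions across genes. With all genes split by brightness into quintiles, the median difference went from 0.07 in the dimmest quintile to −0.28 in the brightest. In the dimmest quintile, that of Ier2, 4.05% of genes were at least 2-fold higher and 97.5% lay below Ier2. In the next quintile, 93.4% of genes lay below Junb, 83.6% below Fos and 34.7% below Atf3. In the brightest quintile 87.3% lay below Btg2 and 46.7% below Nr4a1. With the trend on brightness removed by loess, Ier2 was at 1.16, Junb at 0.71, Fos at 0.44, Btg2 at 0.31, Nr4a1 at −0.06 and Jun at −0.28.

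**Figure D4:**
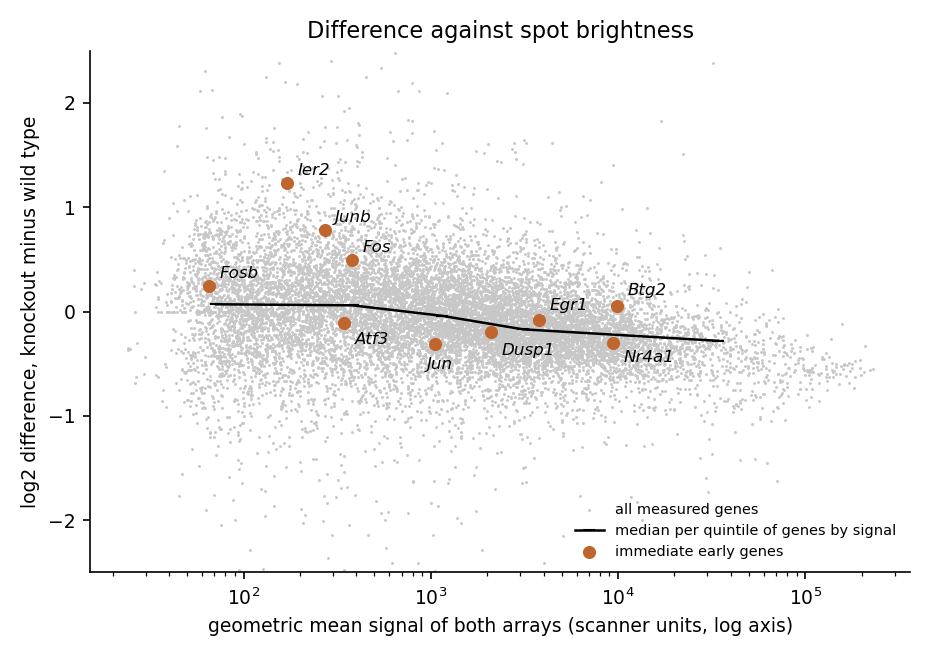
Scaled log2 difference against geometric mean signal of both arrays (scanner units, log axis) for all measured genes (grey) and the 10 immediate early genes (orange), with the median of each quintile of genes by signal as a line. Ier2, Junb and Fos lie above the line among dim spots, and 55 genes beyond ±2.5 are outside the plotted range.

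The way the arrays were scaled and corrected moved the values of each gene. Ier2 ranged from 0.73 to 1.38 over 10 alternatives and was at least 2-fold higher in 9 of them. Junb ranged from 0.51 to 0.93 and Fos from 0.32 to 0.64, both above 0 throughout. Jun (−0.40 to −0.16), Dusp1 (−0.29 to −0.05) and Nr4a1 (−0.39 to −0.06) were below 0 throughout. The median of all measured genes shifted by 0.15 with scaling on probes above background on both arrays. Relative to the median of all genes, 6 of the 10 genes were above it in the values reported here and under 5 of 6 other scalings or corrections, and 5 were with normexp.

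**Figure D5:**
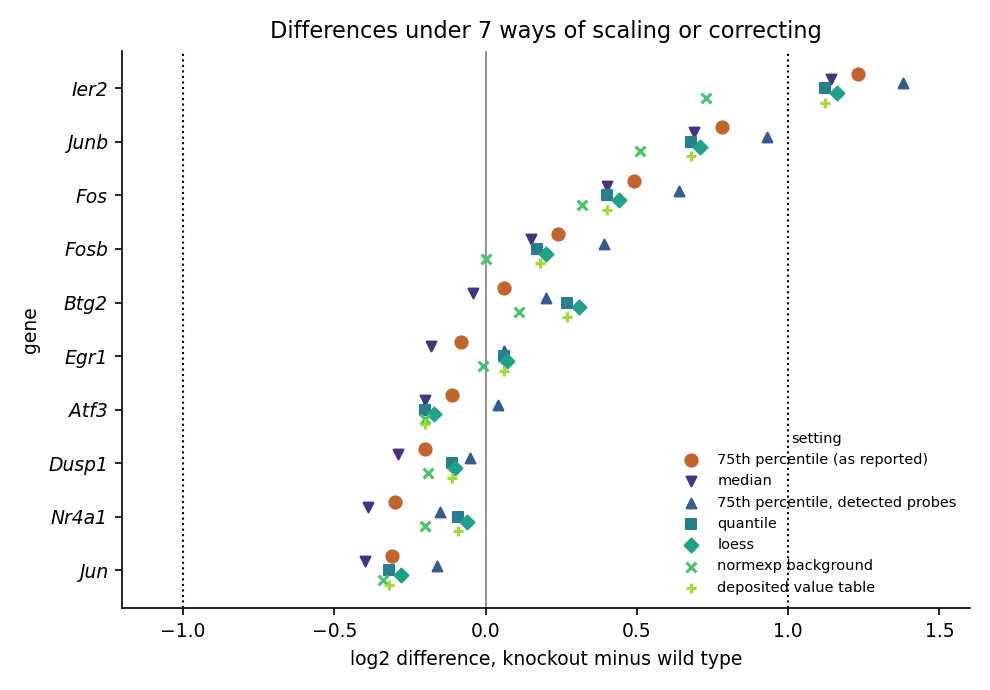
Log2 difference, knockout-labelled minus wild type, of each of the 10 genes under 7 ways of scaling or background correction, with dotted lines at 2-fold. Ier2 lies past 2-fold except with normexp (0.73), and Jun, Nr4a1 and Dusp1 lie below 0 under each.

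Other rapidly induced genes were close to the bulk of the array. Of 22 further transcription factors of this kind 18 were measured, and none was 2-fold higher or lower. Their median was −0.11, with 5 above 0 and 13 below, beside −0.09 for all genes. Jund, the Jun family gene that is expressed constitutively, read 17528 and 32397 (0.36 ± 0.20), and Ets2, an Ets family factor, was at 0.26. At the other end were Irf1, an interferon-responsive factor, with signals of 44261 and 37858 (−0.75 ± 0.20), and Csrnp1 at −0.54. These 4 kept their sign in all 10 alternatives. Fosl1, Egr3, Egr4 and Nr4a3 were not above background on either array.

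Of 30 further feedback regulators, surface and secreted genes 25 were measured, with a median of −0.14, 9 above 0 and 16 below. None was 2-fold higher. Gadd45a, a growth arrest and DNA damage gene, was the 1 gene at 2-fold lower, with signals of 1061 and 741 (−1.04 ± 0.21), and it was at −0.90 with scaling on probes above background on both arrays. Sik1, a salt-inducible kinase that restrains CREB coactivators, read 2844 and 2180 (−0.91 ± 0.20). Zfp36, the mRNA-destabilising protein tristetraprolin, read 635 and 1293 (0.50 ± 0.21). The 2 probes of Rhob, a small GTPase gene, gave 0.49 (brighter) and 0.08. Cd69, the early activation marker of lymphocytes, read 1122 and 1573, a difference of −0.04 ± 0.20.

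The kinases and factors that act on immediate early promoters had a median of −0.02 over 23 measured genes, with 11 above 0 and 12 below. Elk4, an Ets-type partner of serum response factor, was the 1 gene at 2-fold. It read 276 and 815 with its brightest probe (1.04 ± 0.22), its other probes were at 0.46 to 0.95, and it passed 2-fold in 5 of 10 alternatives. Its relative Elk1 read 210897 and 202661 (−0.58 ± 0.20), with values from −0.68 to −0.01 over the alternatives. Those signals, from 1 probe, are close to the highest geometric mean signal of any measured gene, 228381. Whether that probe reads the Elk1 transcript alone was not tested. Rps6ka3, an ERK-activated kinase, was at 0.38. Atf2, a JNK and p38 target, was at −0.25 with its brightest probe and from 0.29 to 0.64 with its others, so its direction is unsettled. Srf itself was at −0.02 and Creb1 at 0.19 with their brightest probes, and at −0.40 and −0.09 with the others.

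Heat shock genes, of which the inducible ones also respond to handling and temperature, lay mostly below 0 after scaling, as did most measured genes. Of 12 genes 11 were measured and none was 2-fold higher or lower. Their median was −0.36, with 2 above 0 and 9 below, and it was −0.13 with the trend on brightness removed. Relative to the median of all genes, the median of this list lay at −0.27 to −0.13 over 10 alternatives. Of all measured genes 40.7% were above 0, and 16.4% of the brightest quintile, where most of these heat shock genes lay. Hsph1, a large heat shock protein gene, read 3554 and 6970 (0.45 ± 0.20). Hspa1a, the inducible Hsp70 gene, read 60.0 and 102 (0.25 ± 0.38) and turned negative with normexp. The mitochondrial chaperone genes Hspd1 and Hspe1 were lowest, at −0.79 and −0.73. Hspa8 was at −0.43 with its brightest probe and from 0.14 to 0.90 with its others.

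Markers of pancreas, neutrophils and platelets had median differences between these 2 RNAs of over 2-fold, while the medians of B cell, T cell and red pulp macrophage markers lay near 0. All 15 exocrine pancreas markers were past 2-fold in favour of the knockout-labelled sample, with a median of 4.0 and a summed unscaled signal of 19420 in wild type and 265724 in the other. Of 13 neutrophil and granulocyte precursor markers 10 were at least 2-fold lower, with a median of −1.62 and summed signals of 204697 and 83154. Of 8 megakaryocyte and platelet markers 7 were at least 2-fold lower, with a median of −1.70 and summed signals of 52539 and 23513. All markers of these 3 lists were above background on both arrays, so none was at 0. The defining lymphoid markers of spleen were present, with medians of 0.08 over 8 B cell and −0.09 over 9 T cell genes, and red pulp macrophage markers were at −0.18 over 7. Among these, the B cell marker Fcer2a was 2-fold higher, at 1.13. The 6 endothelial markers measured had a median of 0.39, with 4 above 0 and Vwf, the von Willebrand factor gene, 2-fold lower at −1.05. The part of the pancreas, neutrophil and platelet differences in the values of Ier2, Junb and Fos was not tested. In bulk RNA, fewer cells of a type and less RNA per cell cannot be told apart.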

How the data were processed

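Gene expression was read from 2 one-colour Agilent arrays, 1 per Loxl3 genotype as the labels give it. The scanner files deposited by the authors give a linear intensity for every spot, made with Feature Extraction 11.0.1.1 (protocol GE1_1100_Jul11, probe design on mm9), per the file headers. The value table that the authors deposited holds log2 values, and the median of each column is 6.71. It served as an alternative. How it was made is not stated in these sources, and 7 of 39420 probes differed by over 0.5 from quantile-normalized scanner values.

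Of 43020 non-control spots, 110 and 132 flagged as outliers were left out, and none was saturated. Log2 processed signals were averaged per probe and set to each array's 75th percentile. Unversioned accessions matched RefSeq transcripts of GRCm38.p6 for 27226 of 39420 probes. On the arrays 54.7% and 56.8% of probes were well above background. Each gene took its brightest probe that was above background on at least 1 array. Where just 1 array measured a gene, its difference is a bound: the scaled bright signal is set against the dim probe's own signal or the lowest detected one on that array, whichever is larger. For Fosb the dim probe's own signal was the larger, so its value is the measured difference. A bound under 1-fold was set to 0 on the log2 scale. Precision is limited by the number of arrays, and 0 residual degrees of freedom leave no test.

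The members, the 11 other gene lists and the 10 alternatives, besides a fold threshold of 1.5, were chosen with earlier results of these data known. The other lists were 4 of related genes and 7 of cell type markers. Genes named outside the members are those at 2-fold and the 2 highest and 2 lowest of each related list, the measured neighbours of Ier2, and a few chosen after their values were seen (Cd69, Srf, Creb1, Hspa8, Fcer2a, Vwf and the genes between Ier2 and Junb). Scaling and calling were tested on simulated arrays with an even shift between them and differences either absent or well past 2-fold. That simulation does not test the trend on brightness or calls near 2-fold. Python 3.11.15, pandas 2.3.3, statsmodels 0.14.6 and limma 3.58.1 were used. The normexp alternative used median spot signals and an offset of 50.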

Additional observations from a re-analysis of the deposited data

How the results depend on the processing

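No alternative turned Ier2, the gene of the list at 2-fold, to the other direction. The count of list genes at least 2-fold higher was 1 in 9 of 10 alternatives, 0 with normexp background correction and 2 at a threshold of 1.5-fold, and the count of 2-fold lower genes was 0 in each of these. Over all measured genes, the count at least 2-fold higher (296) was 457 with scaling on probes above background on both arrays, 156 with normexp, 630 with no filter on dim probes and 1041 at 1.5-fold. The count at least 2-fold lower (278) was 186 with scaling on probes above background on both arrays, 388 with scaling on the median, 183 with normexp, 719 with no filter and 1287 at 1.5-fold. The filter on probes above background on both arrays removed Fosb, which therefore has 9 alternatives. The median of the 10 genes ranged from −0.11 to 0.14. Low signal limits Fosb and Ier2 most, since their wild-type spots read 50.2 and 93.3 with the lowest signal called well above background at 41.9. Apart from Fos, each gene rests on 1 spot of 1 probe. No paired analysis was possible because each group has 1 array.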

Other observations

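Ier2 and Junb, the 2 genes of the list with the highest differences, lie on the same chromosome, 8, with 23 RefSeq genes of the GRCm38.p6 order between them. Of these 16 were measured, with a median log2 difference of −0.18, 6 above 0, 2 at least 2-fold higher and none at least 2-fold lower. The shares over all measured genes were 40.7% above 0, 2.16% past 2-fold on the higher side and 2.03% past it on the lower side. The next gene after Ier2, Nacc1, a BTB-domain transcriptional regulator, read 229 and 675 in the wild-type and knockout-labelled samples (1.03 ± 0.21, and 0.28 with a dimmer probe), and it passed 2-fold in 4 of 10 alternatives. The nearest measured gene on the other side, the calcium channel gene Cacna1a, was at 0.33 ± 0.22. Dnase2a, the lysosomal DNase with which macrophages digest DNA of engulfed erythroid nuclei, read 4785 and 18256, a difference of 1.41 ± 0.20 that passed 2-fold in all 10 alternatives. Between the same 2 genes, the red cell regulator Klf1 was at 0.73 ± 0.22 and Nfix, a nuclear factor I gene, at 0.88 ± 0.24. The 2 probes of Gadd45gip1 gave −0.85 (brighter) and 1.58.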
